A study of Homo sapiens with 6 samples.

Results

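Transcript levels of 8 genes tied to Alzheimer and Parkinson disease were followed in SH-SY5Y cells, a line from a human neuroblastoma that is often used as a neuronal model. The genes were taken by name from a deposited table of 60612 genes: APP, APLP1, APLP2, BACE1, MAPT, PINK1, PARK7 and LRRK2. The table covered 3 libraries of cells carrying a CDKN2B-AS1 overexpression vector (OE libraries) and 3 libraries of cells infected with a control vector, called stuffer in the labels. CDKN2B-AS1 is a noncoding transcript from the strand opposite the tumour suppressor gene CDKN2B. All 6 libraries came from the same line, in which every group had been through a vector, and no untreated cells were included. The column names carry the tags LVx2 for OE and LVx1 for control, which no label explains; what they mark and the vector carried cannot be told apart. Separate cultures within a group are not stated in the labels, and the p-values then cover the spread of these libraries alone, which may be technical. In bulk RNA, fewer cells expressing a gene and less of its RNA per cell cannot be told apart either.

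APP is a membrane protein from which the amyloid beta peptide is cut, and APLP1 and APLP2 are its paralogs, which lack that peptide. BACE1 is the beta-secretase that makes the first amyloidogenic cut in APP, and MAPT encodes tau, the microtubule-binding protein of neurofibrillary tangles. PINK1 is a kinase that accumulates on damaged mitochondria and marks them for removal by mitophagy, PARK7 encodes the redox-responsive protein DJ-1, and LRRK2 is a large kinase that phosphorylates Rab GTPases. Loss of PINK1 or PARK7 causes recessive early-onset Parkinson disease, and activating mutations of LRRK2 cause a dominant form.

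The depth recovered from the table ran from 20466583 to 48996425 fragments in OE libraries and from 29048596 to 45102020 in control vector libraries. FPKM, fragments per kilobase of annotated exon scaled to the assigned fragments of the library, summed to 349703 to 365333 over all genes in OE libraries and to 381310 to 400215 in control vector libraries, so this sum separated the groups. CDKN2B-AS1 itself stood at 0.338, 0.304 and 0.353 FPKM in OE replicates 1, 2 and 3 and at 0.272, 0.288 and 0.191 FPKM in control vector replicates 1, 2 and 3, so the groups are named by their labels. Of 13 sympathoadrenal neuroblastoma markers 12 reached 1 FPKM in at least 3 libraries. TH, the rate-limiting enzyme of dopamine synthesis, did not, at up to 0.0257 FPKM in OE and up to 0.300 FPKM in control vector libraries. The summed neuroblastoma markers ran from 1312 to 1423 FPKM in OE and from 1236 to 1387 FPKM in control vector libraries. Single markers differed: GATA2 (96.1 to 121 FPKM in OE, 87.6 to 90.5 FPKM in control vector libraries) was higher in OE without overlap. So was GATA3 (95.9 to 111 and 73.1 to 83.1 FPKM), while STMN2 (206 to 211 and 229 to 258 FPKM) was lower without overlap. The groups overlapped for the other markers, and 0 of the 13 passed the test described below. Of 12 mesenchymal or fibroblast markers 6 reached 1 FPKM (sums of 52.0 to 61.5 FPKM in OE and 49.8 to 62.0 FPKM in control vector libraries), with PRRX1 at 0. The 6 were THY1, LUM, PDGFRB, COL3A1, DCN and SNAI2. THY1 ran from 17.2 to 19.0 FPKM in OE and from 18.6 to 20.7 FPKM in control vector libraries. LUM ran from 14.6 to 21.4 FPKM in OE and from 9.10 to 21.1 FPKM in control vector libraries. Of 10 Schwann, glial and microglial markers 1, S100B, reached 1 FPKM (sums of 3.53 to 3.60 FPKM in OE and 3.03 to 7.07 FPKM in control vector libraries), with CX3CR1 and P2RY12 at 0. None of the 8 epithelial or the 6 immune markers reached it in at least 3 libraries, and their sums stayed at or under 1.58 FPKM in every library, with KRT5, PAX8, LHX1, PTPRC, CD3E and ITGAM at 0.

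The bases before the RefSeq starts of the 3 APP family genes (assembly GRCh38.p14) are shown because these paralogs were all higher in the OE libraries. A link between these bases and the levels was not tested. Capitals mark the GC box, GGGCGG on either strand. For APLP1 the stretch stops before the first annotated exonic base within its window. The APLP1 and APLP2 stretches lie inside the annotated genes, whose edges are 675 and 2421 bases before the RefSeq starts used.
APP, chr21:26171129-26171378, minus strand: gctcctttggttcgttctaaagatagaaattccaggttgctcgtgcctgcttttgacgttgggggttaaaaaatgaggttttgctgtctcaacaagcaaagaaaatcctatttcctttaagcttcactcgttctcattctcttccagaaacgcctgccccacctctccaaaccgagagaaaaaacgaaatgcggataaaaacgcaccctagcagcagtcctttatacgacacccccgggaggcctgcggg
APLP1, chr19:35868324-35868444, plus strand: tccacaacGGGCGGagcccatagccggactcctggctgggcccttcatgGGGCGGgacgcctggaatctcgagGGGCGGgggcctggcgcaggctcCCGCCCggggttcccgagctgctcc
APLP2, chr11:130070318-130070567, plus strand: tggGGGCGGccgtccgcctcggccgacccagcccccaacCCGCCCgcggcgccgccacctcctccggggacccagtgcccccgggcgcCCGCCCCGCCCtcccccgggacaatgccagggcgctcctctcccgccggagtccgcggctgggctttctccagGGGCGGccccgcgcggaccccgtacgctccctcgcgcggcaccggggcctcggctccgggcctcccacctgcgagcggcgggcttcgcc

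In the full windows of 250 bases before those starts, APP was 47.6% G or C with 0 GC boxes, APLP1 was 77.2% with 6, and APLP2 was 82.4% with 5, of which 2 overlapped each other. Over 35116 windows of this length the median was 58% G or C, and 42.6% held a GC box. The NRF1 motif, the AP-1 motif TGANTCA and the cyclic AMP response element TGACGTCA were searched on both strands and matched in none of the 3 windows, against 5.07%, 6.57% and 1.65% of all windows. The windows depend on the start chosen: of the protein-coding transcripts in GENCODE v29, 1 of 10 for APP, 0 of 7 for APLP1 and 1 of 8 for APLP2 began within 100 bases of the RefSeq start used. A match or its absence describes these letters only.

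**Figure D1:**
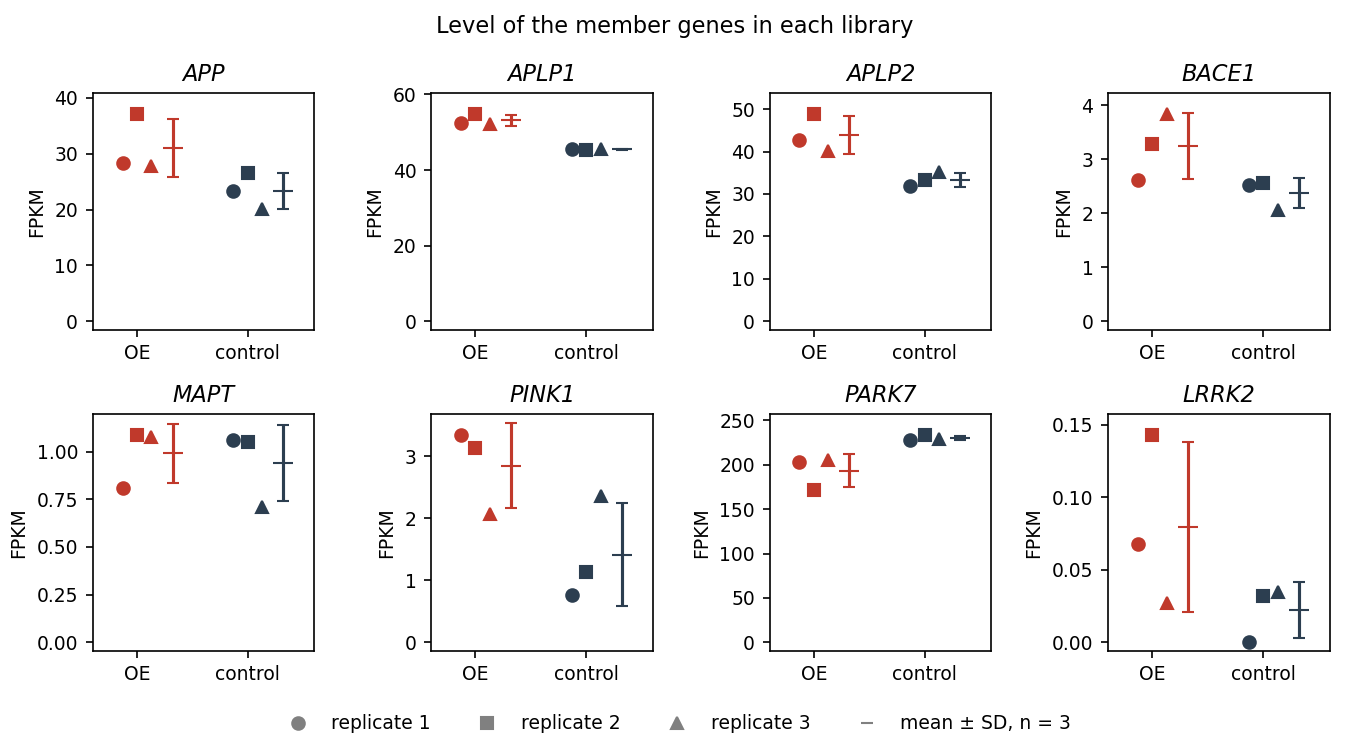
FPKM (linear axis from 0, scaled per gene) of each of the 8 genes in every library, OE in red on the left and control vector in dark blue on the right of each panel; symbols give the replicate and bars the mean ± SD of 3 libraries. All OE libraries lie above all control vector libraries for APP, APLP1, APLP2 and BACE1 and below them for PARK7, while the groups overlap for MAPT, PINK1 and LRRK2.

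None of the 8 genes passed the test between the groups, though 5 of the 7 that were high enough to test had groups that did not overlap. A gene was tested, with limma-trend on log2(FPKM + 0.5), where 3 or more of the 6 libraries had 1 FPKM or above. Adjustment was by Benjamini-Hochberg over 13984 genes, and LRRK2 lay below that filter. Of all tested genes 1.14% were called at an adjusted p of 0.05 (159 genes, of which 74, or 0.529% of those tested, were higher and 85, or 0.608%, lower in OE libraries), so 0 calls among 7 is near that background. Groups without overlap were seen in 24.1% of all tested genes, 14.2% with OE higher and 9.9% with OE lower, against 4 and 1 of the 7. At an unadjusted limma-trend p under 0.05 there were 4 higher genes and 1 lower among the 7, and 10.4% and 7.34% of all tested genes. The 7 had a median log2 fold change of 0.37, beside 0.05 over all tested genes. With 3 libraries against 3 the exact permutation test cannot go below p = 0.1. Fold changes here are on the log2(FPKM + 0.5) scale, given as OE minus control vector, and understate the change of low genes.

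The levels spanned a wide range, and their order held in most libraries. PARK7 was highest, at 172 to 233 FPKM over the 6 libraries, above 97.8% or more of the tested genes in its own library. APLP1 (45.3 to 54.8 FPKM) stood above APLP2 (31.8 to 48.8 FPKM) and APLP2 above APP (20.1 to 37.0 FPKM) within each of the 6 libraries. BACE1 (2.05 to 3.83 FPKM) exceeded PINK1 (0.759 to 3.34 FPKM) in 4 of 6 libraries, and PINK1 exceeded MAPT (0.709 to 1.09 FPKM) in 5 of 6, so neighbours in that part of the order did not separate. LRRK2 was lowest in every library, at 0 to 0.143 FPKM.

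The length behind these levels counts every annotated exon of a gene, which lowers genes with many isoforms. For MAPT it was 15051 bases, against 3838 for the median and 6816 for the longest protein-coding transcript in GENCODE v29. Per kilobase of the longest coding transcript, an alternative chosen after the data were seen, the mean over the 6 libraries was 77.0 for APLP2 and 69.9 for APLP1, which turned their order round, and 3.87 for PINK1 and 3.86 for BACE1. With the median coding transcript APLP1 stayed above APLP2, at 132 and 99.4, and MAPT came to 3.78. PARK7 stayed highest and LRRK2 lowest under both lengths.

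APP (ENSG00000142192, GRCh38 chromosome 21, 25880550 to 26171128, minus strand) was higher in every OE library and varied most there. It stood at 28.3, 37.0 and 27.7 FPKM in OE replicates 1, 2 and 3 and at 23.3, 26.6 and 20.1 FPKM in control vector replicates 1, 2 and 3. Every OE library lay above every control vector library, with OE replicate 2 well above the others and OE replicate 3 close to control vector replicate 2. The means were 31.0 ± 5.22 and 23.3 ± 3.27 FPKM in OE and control vector libraries (SD, n = 3 each), and the log2 fold change of 0.40 (SE 0.15, 95% interval 0.06 to 0.75) did not pass (limma-trend, Benjamini-Hochberg adjusted p = 0.218). Without OE replicate 2 the log2 fold change was 0.27 and the limma-trend adjusted p was 0.522. APP rested on 4789.17 to 8572.5 fragments in OE libraries and on 4877.67 to 6629.67 in control vector libraries.

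APLP1 (ENSG00000105290, chromosome 19, 35867899 to 35879792, plus strand) varied least. Its level was 52.5, 54.8 and 52.2 FPKM in OE replicates 1, 2 and 3 and 45.5, 45.3 and 45.7 FPKM in control vector replicates 1, 2 and 3. The groups were apart by several times the spread within either, in a difference of small size. The means were 53.1 ± 1.41 and 45.5 ± 0.220 FPKM in OE and control vector libraries (SD, n = 3 each), with a log2 fold change of 0.22 (SE 0.10; limma-trend, Benjamini-Hochberg adjusted p = 0.265). The test draws on the spread of genes of like level as well as on that of APLP1.

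APLP2 (ENSG00000084234, chromosome 11, 130068147 to 130144811, plus strand) had the smallest p of the 8 genes. OE replicates 1, 2 and 3 held 42.7, 48.8 and 40.0 FPKM, and control vector replicates 1, 2 and 3 held 31.8, 33.2 and 35.1 FPKM. As for APP and APLP1, OE replicate 2 was highest and no control vector library reached the lowest OE library. The log2 fold change was 0.39 (SE 0.11, 95% interval 0.13 to 0.64), with an unadjusted limma-trend p of 0.00743 and a Benjamini-Hochberg adjusted p of 0.140. With the trend on gene length removed from each library it was 0.26 (limma-trend, adjusted p = 0.296).

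Summed over APP, APLP1 and APLP2, the family came to 124, 141 and 120 FPKM in OE replicates 1, 2 and 3 and to 101, 105 and 101 FPKM in control vector replicates 1, 2 and 3. The ratio of means was 1.25. Since each of the 3 genes was higher in every OE library, their sum could not overlap between groups. Its exact two-sided permutation p of 0.1, the smallest possible, was therefore fixed by the single genes and is no further test. Its composition moved little: APP made up 24.1 ± 1.93% of the sum in OE and 22.8 ± 2.73% in control vector libraries, APLP1 41.6 ± 2.39% in OE and 44.5 ± 1.26% in control vector libraries, and APLP2 34.2 ± 0.722% in OE and 32.7 ± 1.84% in control vector libraries (SD, n = 3 each). The groups overlapped for each share (exact two-sided permutation tests, p = 0.6 for APP, 0.2 for APLP1 and 0.4 for APLP2). Ratios within a library do not depend on how the library is scaled.

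**Figure D2:**
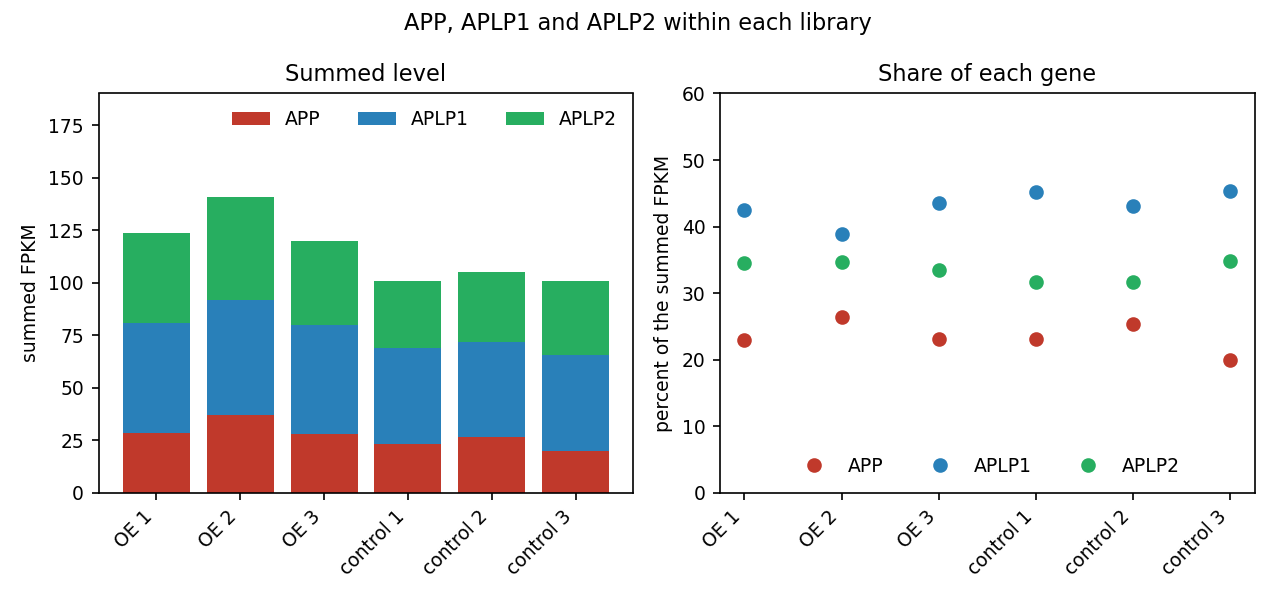
Stacked FPKM of APP, APLP1 and APLP2 per library (left, axis from 0) and the percent each contributes to that sum (right), with OE libraries before control vector libraries. The sums are 120 to 141 FPKM in OE and 101 to 105 FPKM in control vector libraries, while APP keeps between 19.9% and 26.4% of the sum.

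BACE1 (ENSG00000186318, chromosome 11, 117285232 to 117316259, minus strand) was low and only just separated. It had 2.62, 3.28 and 3.83 FPKM in OE replicates 1, 2 and 3 and 2.51, 2.55 and 2.05 FPKM in control vector replicates 1, 2 and 3. OE replicate 1 lay only just above control vector replicates 1 and 2, and the log2 fold change of 0.37 (SE 0.21, 95% interval -0.09 to 0.84) did not pass (limma-trend, Benjamini-Hochberg adjusted p = 0.386). BACE1 per APP, the protease over its substrate, averaged 0.106 ± 0.0276 in OE and 0.102 ± 0.00606 in control vector libraries (SD, n = 3 each), and the groups overlapped (exact two-sided permutation test, p = 1). Its paralog BACE2 was listed at 0 in all 6 libraries.

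The sources used here do not say whether counting used strand, and BACE1 shares 3030 exonic bases with BACE1-AS, an antisense RNA known to stabilise BACE1 mRNA, and 1223 with RNF214. BACE1-AS was listed at 2.32, 3.28 and 3.55 FPKM in OE replicates 1, 2 and 3 and at 2.51, 2.44 and 2.06 FPKM in control vector replicates 1, 2 and 3. BACE1-AS was close to BACE1 in each library, and the fragments of the pair were not separable. RNF214, a ring finger protein gene, stood at 4.76 to 4.90 FPKM in OE and 3.47 to 4.77 FPKM in control vector libraries. CEP164 overlaps BACE1 without shared exonic bases, at 1.22 to 1.71 FPKM in OE and 1.22 to 1.58 FPKM in control vector libraries.

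MAPT (ENSG00000186868, chromosome 17, 45894527 to 46028334, plus strand) showed no direction. It stood at 0.811, 1.09 and 1.07 FPKM in OE replicates 1, 2 and 3 and at 1.06, 1.05 and 0.709 FPKM in control vector replicates 1, 2 and 3. Each group held 1 low library and a higher pair, and the groups overlapped. The log2 fold change was 0.05 (SE 0.26), and its 95% interval of -0.52 to 0.63 runs from 0.697-fold to 1.55-fold on this scale (limma-trend, Benjamini-Hochberg adjusted p = 0.936). Between 334.5 and 792.5 fragments stood behind each library. MAPT-AS1, which overlaps its start on the other strand by 75 exonic bases, stayed at or under 0.0494 FPKM, and 4 of the 5 overlapping genes, MAPT-IT1 and STH among them, were listed at 0 throughout.

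PINK1 (ENSG00000158828, chromosome 1, 20633458 to 20651511, plus strand) had the largest fold change of the 7 tested genes and also overlapping groups. OE replicates 1, 2 and 3 held 3.34, 3.13 and 2.07 FPKM, and control vector replicates 1, 2 and 3 held 0.759, 1.14 and 2.35 FPKM. Control vector replicate 3 lay above OE replicate 3, while the other control vector libraries were below all OE libraries. The means were 2.85 ± 0.680 and 1.42 ± 0.831 FPKM in OE and control vector libraries (SD, n = 3 each). Only 1.64% of tested genes had a higher log2 fold change than its 0.87 (SE 0.32, 95% interval 0.15 to 1.59), which did not pass (limma-trend, Benjamini-Hochberg adjusted p = 0.207; exact two-sided permutation test, p = 0.2). Without control vector replicate 3 it was 1.1996 (limma-trend, adjusted p = 0.0654), and without control vector replicate 1 it was 0.61 (adjusted p = 0.372).

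PINK1-AS lies on the other strand, shares 1907 exonic bases with PINK1 and was listed higher than it. It had 8.56, 8.64 and 7.91 FPKM in OE replicates 1, 2 and 3 and 6.85, 6.15 and 7.46 FPKM in control vector replicates 1, 2 and 3. As for PINK1, OE replicate 3 was the lowest of its group and control vector replicate 3 the highest of its own, with a log2 fold change of 0.28 (limma-trend, Benjamini-Hochberg adjusted p = 0.360). The microRNA gene MIR6084 lies within a PINK1 exon and rested on 1.5 to 22.5 fragments per library. Fragments of the 3 genes were not separable, and the part of PINK1-AS in the PINK1 values was not tested.

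PARK7 (ENSG00000116288, chromosome 1, 7954291 to 7985505, plus strand) was the only member lower in the OE libraries. It stood at 203, 172 and 205 FPKM in OE replicates 1, 2 and 3 and at 228, 233 and 229 FPKM in control vector replicates 1, 2 and 3. All OE libraries were below all control vector libraries, with OE replicate 2 lowest. The means were 193 ± 18.6 and 230.2 ± 2.68 FPKM in OE and control vector libraries (SD, n = 3 each), and the log2 fold change of -0.25 (SE 0.10) did not pass (limma-trend, Benjamini-Hochberg adjusted p = 0.218). With FPKM rescaled to a common sum per library, which moved the median of all tested genes to 0.15, against 0.05 as deposited, the log2 fold change of PARK7 was -0.14 (limma-trend, adjusted p = 0.443). In that scaling APP, APLP1 and APLP2 had 0.51, 0.33 and 0.50, and the genes called over all were 181 higher and 52 lower. With median-of-ratios factors PARK7 had -0.32, APP, APLP1 and APLP2 had 0.34, 0.16 and 0.32, and the called genes were 55 higher and 132 lower. The direction of each of these 4 genes was the same under the 3 scalings.

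LRRK2 (ENSG00000188906, chromosome 12, 40196744 to 40369285, plus strand) was near the detection limit. OE replicates 1, 2 and 3 held 32, 50 and 23 fragments, or 0.0680, 0.143 and 0.0275 FPKM. Control vector replicates 1, 2 and 3 held 0, 16 and 26 fragments, or 0, 0.0322 and 0.0350 FPKM. The 0 in control vector replicate 1 allows up to 0.00389 FPKM by the limit of 3 fragments, and its exact 95% Poisson interval reaches 0.00478 FPKM. The exact 95% Poisson intervals were 0.106 to 0.188 FPKM in OE replicate 2 and 0.0174 to 0.0412 FPKM in OE replicate 3, so libraries of 1 group differed beyond counting error. The groups overlapped, since OE replicate 3 was below control vector replicates 2 and 3 (exact two-sided permutation test, p = 0.3). Over 105 fragments in OE and 42 in control vector libraries the depth-scaled ratio was 3.03 (exact 95% binomial interval 2.0999 to 4.44), which covers counting error only. It was 2.01 without OE replicate 2, 1.87 without control vector replicate 1, 4.78 without OE replicate 3 and 5.02 without control vector replicate 3.

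**Figure D3:**
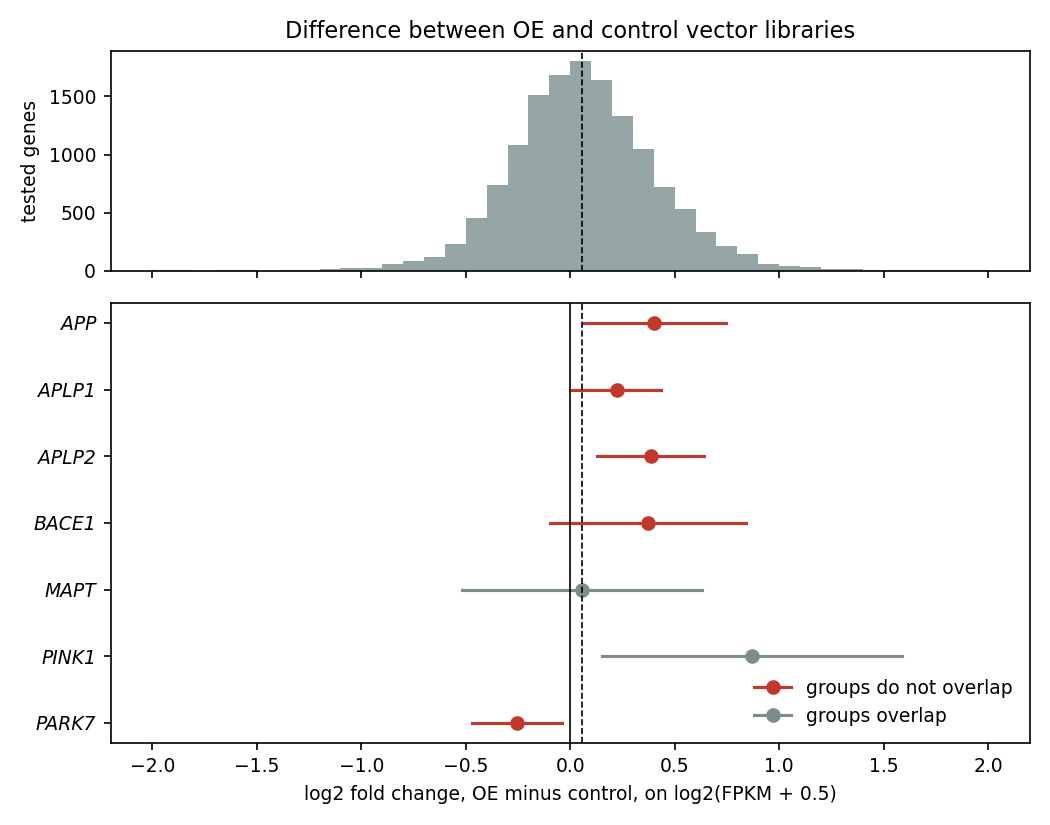
Top, number of the 13984 tested genes by log2 fold change (OE minus control vector, bins of 0.1, values beyond 2 in the outermost bins); bottom, the log2 fold change of the 7 tested genes with its 95% interval, red where the groups do not overlap and grey where they do. The dashed line marks the median of all tested genes at 0.05; PINK1 lies farthest from it, and the interval of MAPT and of BACE1 includes 0.

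Across the pathways around the 8 genes, 178 genes in 7 lists were followed, of which 151 were tested. One gene of them passed, or 0.662%, against 1.14% of all tested genes, so the lists held no more calls than the table as a whole. It was GCH1, the rate-limiting enzyme of tetrahydrobiopterin synthesis, the cofactor of tyrosine hydroxylase, whose loss causes dopa-responsive dystonia. It rose to 22.0, 23.4 and 26.7 FPKM in OE replicates 1, 2 and 3, against 10.3, 13.7 and 14.8 FPKM in control vector replicates 1, 2 and 3. The lowest OE library lay well above the highest control vector library, and the log2 fold change was 0.88 (SE 0.16; limma-trend, Benjamini-Hochberg adjusted p = 0.0390). The call was lost without OE replicates 1, 2 or 3 (limma-trend adjusted p = 0.121, 0.136 and 0.103) and without control vector replicates 1 or 2 (0.0991 and 0.0948), and held without control vector replicate 3 (0.0338), with log2 fold changes of 0.73 to 0.99.

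Among the other Parkinson disease genes, 1 of 15 tested rose, 0 fell and 14 did not pass, with a median log2 fold change of 0.24 beside 0.05 over all tested genes. With the gene length trend removed the median was 0.0957, beside 0.0063 over all tested genes. All OE libraries lay above all control vector libraries in 7 of the 15, where 14.2% of all tested genes had this pattern. GIGYF2, a translational repressor, had 0.74, ATP13A2, a lysosomal polyamine transporter, had 0.71, and DCTN1, a subunit of dynactin, had 0.29, without passing (limma-trend, Benjamini-Hochberg adjusted p of 0.154, 0.155 and 0.268). ATP13A2 overlaps RP1-37C10.3 on the other strand and RP1-37C10.8 on its own, which had 1.15 and 1.46, and GIGYF2 overlaps AC064852.4 on the other strand, which had 0.64. SLC18A2, the vesicular monoamine transporter, was low, at 0.628 to 1.05 FPKM in OE and 0.0914 to 0.567 FPKM in control vector libraries. UCHL1, a neuronal deubiquitinase, was abundant, at 340 to 469 FPKM in OE and 339 to 468 FPKM in control vector libraries.

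In the list of secretases and their cofactors 0 of 10 tested genes passed and the median was 0.18. NCSTN and APH1A, subunits of gamma-secretase, had -0.28 each, with overlapping groups at 46.9 to 54.7 FPKM in OE and 53.0 to 67.9 FPKM in control vector libraries for NCSTN, and at 45.9 to 54.3 FPKM in OE and 51.0 to 68.7 FPKM in control vector libraries for APH1A. APH1A overlaps C1orf54 on the other strand, which had -0.43. GSAP, a gamma-secretase activating protein, had -0.60 with overlapping groups, and TSPAN14, a tetraspanin that promotes ADAM10 maturation, had 0.28. ADAM10, the main alpha-secretase, ran from 3.38 to 4.01 FPKM in OE and from 1.67 to 4.85 FPKM in control vector libraries.

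Of the APP adaptors and of genes for APP sorting and turnover, 0 of 24 passed. Log2 fold changes were positive in 18, beside 7948 of all 13984 tested genes, and the median was 0.21, beside 0.05. With the gene length trend removed the medians were 0.0809 for the list and 0.0063 for all tested genes. SORT1, the sorting receptor sortilin, had 3.47, 3.52 and 3.32 FPKM in OE replicates 1, 2 and 3 and 1.23, 1.27 and 3.05 FPKM in control vector replicates 1, 2 and 3. Control vector replicate 3 stood near the OE libraries, as for PINK1, and without it SORT1 had a log2 fold change of 1.17 (limma-trend, Benjamini-Hochberg adjusted p = 0.0448), against 0.83 with it (adjusted p = 0.185). NUMB, an endocytic adaptor, had 0.40, and KLC1, a kinesin light chain, had 0.51, without overlap between groups. KLC1 overlaps several genes, among them RP11-73M18.2 on its own strand with 0.56 and BAG5 on the other with -0.17. RTN3, a reticulon that binds BACE1, had 0.24 with overlapping groups.

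In the tau list of kinases, phosphatases and chaperones 0 of 21 passed, with a median of 0.13. Log2 fold changes were positive in 19 of them, beside 7948 of all 13984 tested genes. HSP90AA1, a chaperone of tau, stood at 215 to 242 FPKM in OE and 174 to 211 FPKM in control vector libraries, and its co-chaperone FKBP5 at 4.40 to 5.29 FPKM in OE and 3.03 to 3.81 FPKM in control vector libraries, with log2 fold changes of 0.24 and 0.40. PPP2R1A, the scaffold of protein phosphatase 2A, had -0.15, and the tau kinase MARK3 had 0.35, both with overlapping groups. PPP2R1A overlaps CTD-2525I3.3 on the other strand, which had -0.12.

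The list of PINK1 import and mitophagy genes had 0 of 36 past the test and a median of -0.13. It held 21 negative and 15 positive members, beside 6036 negative and 7948 positive among all tested genes. Its median was below 0 in all 18 alternatives, from -0.1913 with median-of-ratios factors to -0.0132 without control vector replicate 3. TRAP1, a mitochondrial chaperone and PINK1 substrate, stood at 44.0 to 52.6 FPKM in OE and 60.7 to 64.5 FPKM in control vector libraries, and TOMM5, of the outer membrane translocase, at 25.2 to 28.1 FPKM in OE and 30.5 to 33.7 FPKM in control vector libraries, without overlap. TRAP1 overlaps DNASE1 on the other strand, with -0.31, and TOMM5 overlaps RP11-613M10.8 and RP11-613M10.9 on its own, with -0.35 and -0.19. MFN2, a mitofusin that is ubiquitinated in mitophagy, ran from 18.7 to 20.9 FPKM in OE and from 16.2 to 16.3 FPKM in control vector libraries, and CALCOCO2, the mitophagy receptor NDP52, from 5.99 to 7.77 FPKM in OE and from 4.42 to 5.89 FPKM in control vector libraries. Both were higher without overlap and did not pass (limma-trend, Benjamini-Hochberg adjusted p = 0.236 and 0.241).

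Of the LRRK2 partners and Rab substrates 0 of 22 passed, with a median of 0.11. YWHAH, a 14-3-3 protein of the family that binds phosphorylated LRRK2, had 76.9, 79.0 and 54.6 FPKM in OE replicates 1, 2 and 3 and 24.8, 40.7 and 57.3 FPKM in control vector replicates 1, 2 and 3. Replicate 3 of the 2 groups crossed, as for PINK1, with a log2 fold change of 0.83 (limma-trend, Benjamini-Hochberg adjusted p = 0.156). LL22NC03-44A4.3 overlaps YWHAH on its own strand with 0.73. ARHGEF7, an exchange factor that binds LRRK2, had 0.50 without overlap between groups. RAB5C, an endosomal Rab, had -0.28, and DNAJC13, an endosomal co-chaperone, had 0.66, both with overlapping groups. DNAJC13 ran from 1.24 to 1.91 FPKM in OE and from 0.228 to 1.82 FPKM in control vector libraries. RAB5C overlaps CTD-2132N18.3 on its own strand, which had -0.24.

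Among redox and glyoxal defence genes related to PARK7, 0 of 23 passed and the median was 0.02. NQO1, a quinone reductase, stood at 14.3 to 16.5 FPKM in OE and 8.73 to 10.9 FPKM in control vector libraries (log2 fold change 0.64; limma-trend, Benjamini-Hochberg adjusted p = 0.0646), and SOD2, the mitochondrial superoxide dismutase, at 3.67 to 3.80 FPKM in OE and 1.95 to 2.54 FPKM in control vector libraries (0.65). CTD-2033A16.1 overlaps NQO1 on the other strand with 1.49, and WTAP and ACAT2 overlap SOD2 on the other strand with 0.13 and 0.05. The peroxidase genes GPX1 and PRDX3 had -0.37 and -0.49, with all OE libraries below all control vector libraries, as for PARK7.

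**Figure D4:**
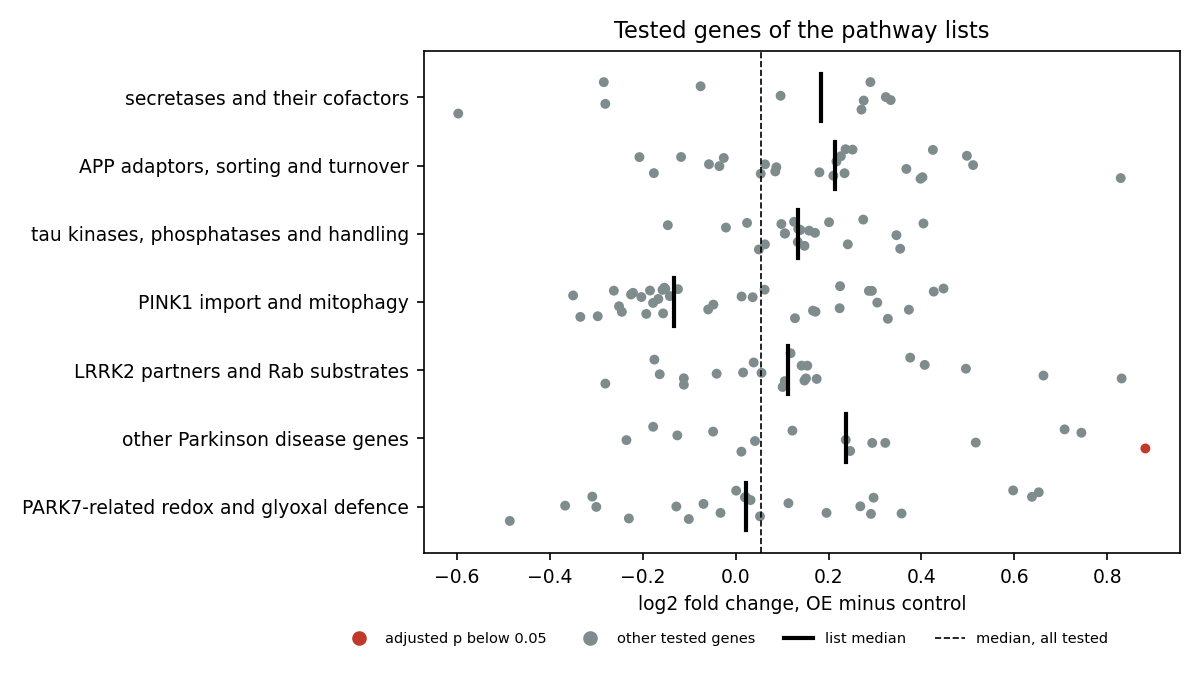
Log2 fold change (OE minus control vector) of each tested gene in 7 lists of related genes; the black bar is the list median, the dashed line the median of all tested genes at 0.05, and points are spread vertically for visibility. GCH1, in red at 0.88, is the only gene with an adjusted p below 0.05, and the PINK1 import and mitophagy list has its median at -0.13.

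For each tested member the genes with at least 5 FPKM on average were ranked by how closely their centred log2 profile over the 6 libraries followed it, as the root mean square difference. The nearest were picked from 7404 or 7405 genes per member, and how close a profile such a search finds for any gene was not tested. The nearest to APP were FIP1L1, a polyadenylation factor (0.0458), and the noncoding CTD-2012K14.4 (0.0543), and the nearest to APLP2 were GATA3, a transcription factor of sympathetic neurons (0.0362), and NCL, nucleolin (0.0404). APLP1 was followed most closely by SRP68, of the signal recognition particle (0.0238), and TMEM214 (0.0324). For BACE1 they were GM2A, a lysosomal ganglioside activator (0.0605), and RP11-390B4.3 (0.0675), and for MAPT RP11-574F21.3 (0.0428) and the iron transporter gene SLC11A2 (0.0459). PINK1 was followed by BAMBI, a TGF-beta pseudoreceptor (0.101), and YWHAH (0.114), which shared its high control vector replicate 3 and low OE replicate 3. These distances were the largest, but they grow with the spread of the member itself. The root mean square of the centred profile was 0.585 for PINK1, against 0.267 for APP and 0.113 for APLP1. For PARK7 they were GEMIN7-AS1 (0.0290) and PSMA6, a proteasome subunit (0.0321). These distances describe likeness over 6 libraries only.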

How the data were processed

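Per the labels' protocols, total RNA of 6 SH-SY5Y samples was purified with an RNeasy Micro kit, and SMART-seq HT libraries were read from both ends. Named in the submitters' processing notes are the aligner STAR (2.7.9) and the counter featureCounts (2.0.1), with the builds hg38 and GRCh38.p13; their options are not given in the sources used here. The authors deposited FPKM per gene. FPKM times length in kilobases summed to 1e+06 per library, the length equalled the union of a gene's exons in 100% of genes, and all values up to 1000 fragments were multiples of 0.01 fragment, from which depth was recovered; 45.0% to 48.7% were whole (tolerance 0.001).

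The test, for genes with 1 FPKM or more in 3 libraries, was that of limma 3.58.1 (R 4.3.3), on log2(FPKM + 0.5), with a trend of the variance on the level and without block or covariate, and Benjamini-Hochberg adjustment over 13984 genes at 0.05; the fit was tested on simulated data. Alternatives were 2 pseudocounts, 2 filters, 2 scalings, no trend, robust moderation, array weights, limma-voom on recovered fragments, removal of the gene length trend, a replicate block and leaving out each library. Intervals on fragments cover counting error only. Named were the 8 members, overlapping genes with signal, up to 4 genes of smallest p per list and 2 nearest profiles per member; ADAM10, SLC18A2, UCHL1 and BACE2 were named after their values were seen. The members and lists were chosen with earlier results of these data known. Promoter windows are from RefSeq, GRCh38.p14.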

Additional observations from a re-analysis of the deposited data

How the results depend on the processing

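Under all 18 alternatives 0 of the tested members passed, with 1 to 6 of them at an unadjusted p under 0.05 (6 in limma-voom, 1 without OE replicate 2 or without control vector replicate 1). The log2 fold changes of APP, APLP1, APLP2, BACE1, PINK1 and PARK7 kept their sign in each. MAPT turned negative with array weights (-0.0371), with the gene length trend removed (-0.1478) and without control vector replicate 3 (-0.0666; 0.1441 at most with a library left out, without OE replicate 1), and LRRK2 with the gene length trend removed (-0.0637). In limma-voom LRRK2 had 2.80, a value that depends on the prior count of a library at 0. The number of genes called over the whole table was 159; it was 0 without a filter (3538 at an unadjusted limma-trend p under 0.05), 0 without the trend (2304), 339 with a filter of 5 FPKM, 265 with array weights and 0 to 139 with 1 library left out, and the cause was not tested. GCH1 kept its call in 10 of 18 alternatives, with limma-trend or limma-voom adjusted p of 0.0175 to 0.186, and NQO1 passed in 3. List medians changed sign for the secretases with a filter of 5 FPKM (-0.0754) and for the redox genes with median-of-ratios factors (-0.0357), without OE replicate 2 (-0.0089) and without control vector replicate 1 (-0.0163). Removal of the gene length trend gave medians of 0.0523 for the secretases, 0.0809 for the APP adaptors and 0.0539 for the tau list. It gave 0.0137 for the LRRK2 list, 0.0957 for the other Parkinson disease genes, 0.0148 for the redox genes and -0.1584 for the mitophagy list. Same-numbered libraries of the groups deviated together at r of -0.024, 0.105 and 0.119, and differently numbered ones at -0.182 to 0.102. With 3 libraries per group these values cannot show whether the numbers pair the samples. With a replicate block 229 genes and 0 members were called. LRRK2, at 0 to 50 fragments per library, could not be tested at this filter.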
